A study of Mus musculus with 8 samples.

Results

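Fatty acid oxidation genes were described here as a set of 34 named genes, of which 21 encode proteins assigned to the mitochondrial pathway, 9 encode peroxisomal proteins and 4 encode regulators. A probe set, the group of oligonucleotides that reads 1 transcript on the array, belonged to a gene if the platform annotation gave that gene alone. By this rule 33 of the 34 genes had 64 probe sets, and 29 genes were bright enough to be tested, of 11564 genes tested and 18193 with a probe set. The arrays were Affymetrix Mouse Genome arrays read with total RNA of MEFs, fibroblasts of mouse embryos, made immortal with large T antigen. The 4 groups of 2 arrays each were VHL/FIH null, VHL null, FIH null and wild type cells, all cultured at 21% oxygen. The null cells came from lines with floxed alleles of VHL, FIH or both after infection with an adenovirus that carries Cre recombinase, so each null group also had its own line of origin, and genotype and line cannot be told apart. The labels call the 2 samples of a group biological replicates without saying whether they were separate embryos or cultures, so the p-values speak of the spread between these samples, which may be technical. The question was how deletion of VHL, FIH or both changed the transcripts of fat burning.

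Mitochondria burn fatty acids after a carnitine shuttle has moved them across the inner membrane, and a cycle of dehydrogenation, hydration, a second dehydrogenation and thiolysis then shortens the chain. Electrons from the first dehydrogenation pass through the electron transfer flavoprotein to the respiratory chain. Peroxisomes run a parallel cycle on very long and branched chains, and the nuclear receptors PPAR alpha and PPAR delta with the coactivators PGC-1 alpha and PGC-1 beta drive many of these genes in liver, heart, muscle and brown fat. VHL belongs to a ubiquitin ligase by which the alpha subunits of hypoxia-inducible factors (HIF) are sent for destruction, and FIH is an asparaginyl hydroxylase that limits HIF-driven transcription. HIF is known to turn cells from oxidation toward glycolysis.

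Values are MAS5 signals, a linear brightness deposited by the authors for each probe set. A change is a difference of group means of log2(signal + 16), a scale that understates changes of dim genes, and was tested with limma across all tested genes at a Benjamini-Hochberg adjusted p of 0.05. Every sentence that says rose or fell refers to a change that passed this test, relative to an array's mean level. Signals at or below 291.1, the median of all signals, were treated as too dim to rank. Hif1an, which encodes FIH, read 1404 and 1169 in VHL/FIH null, 1913 and 2153 in VHL null, 1676 and 1707 in FIH null and 2722 and 3013 in wild type cells. Vhl read 1061 and 897 in VHL/FIH null, 708 and 754 in VHL null, 3534 and 3426 in FIH null and 3269 and 3320 in wild type cells. Both targeted transcripts were thus lower where their gene was deleted, and Hif1an was also lower in VHL null cells (limma log2 change -0.49, adjusted p = 0.00597). Of 11 fibroblast markers with a probe set all 11 were above the cutoff on at least 2 arrays and 8 on every array. Muscle markers summed to 2252 and 2395 in the VHL/FIH null arrays, from 1218 to 1403 in VHL null, from 1302 to 1310 in FIH null and from 1115 to 1146 in wild type arrays, with 2 of 8, Acta1 and Ckm, above the cutoff and Myod1, Myog, Myh3, Mb, Myh6 and Nppa below it on every array. Adipocyte markers summed to 3382 on both VHL/FIH null arrays, from 2020 to 2068 in VHL null, from 1454 to 1645 in FIH null and from 2167 to 2225 in wild type arrays, with 3 of 6 above the cutoff and Adipoq, Lep and Cidec below it on every array. Epithelial markers, with 2 of 4 above the cutoff and Cdh1 below it, summed to between 931 and 1250.3 in VHL/FIH null, 1045 and 1312 in VHL null, 2392 and 2418 in FIH null and 2155 and 2466 in wild type arrays, and were thus lower in all arrays without VHL. None of 4 hepatocyte markers was above the cutoff. The part of these markers in the results was not tested, and in bulk RNA fewer cells of a type and less RNA per cell cannot be told apart.

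Most enzymes of mitochondrial fatty acid oxidation that changed on deletion of VHL were lower, by modest amounts. In VHL null cells against wild type 16 of the 29 tested genes fell and 2 rose, that is 62.1% changed where 43.8% of all tested genes did, and 55.2% fell where 28.4% of all genes fell and 15.5% rose. Their median log2 change was -0.26, where that of all tested genes was -0.10. In VHL/FIH null cells against wild type 10 fell and 4 rose (48.3% changed, where 41.4% of all genes did, 17.8% higher and 23.6% lower), with a median of -0.14 beside -0.05 for all genes. In FIH null cells against wild type 1 fell and 1 rose (6.9%, where 6.55% of all genes changed, 1.96% higher and 4.59% lower), a share near that of all genes. The share in VHL null cells depended on the scaling: with quantile normalization 10 fell and 2 rose (41.4%, where 39.8% of all genes changed), and with the array medians made equal 9 fell and 3 rose (41.4%, where 41.9% changed). Equal medians gave 7 falls and 6 rises in VHL/FIH null cells (44.8%, where 40.2% of all genes changed). In FIH null cells they gave 1 fall and 4 rises (17.2%, where 12.8% of all genes changed, 1070 higher and 411 lower). Leaving out VHL null replicate 2 gave 11 calls in place of 18, 10 lower and 1 higher (37.9%, where 34% of all genes changed).

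The mitochondrial and peroxisomal genes were counted apart. Of 20 tested mitochondrial genes 14 fell (70%) and 2 rose (10%) in VHL null cells, and 9 fell (45%) and 3 rose (15%) in VHL/FIH null cells. Among all tested genes 28.4% fell and 15.5% rose in VHL null cells, and 23.6% fell and 17.8% rose in VHL/FIH null cells. Of 7 tested peroxisomal genes 2 fell and 0 rose in VHL null cells, with 5 not passing, and 1 fell and 1 rose in VHL/FIH null cells. The difference between the 2 sets was not tested. The steps were small, since the lowest log2 change of a member against wild type in VHL null cells was -0.64 and the highest 0.50.

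**Figure D1:**
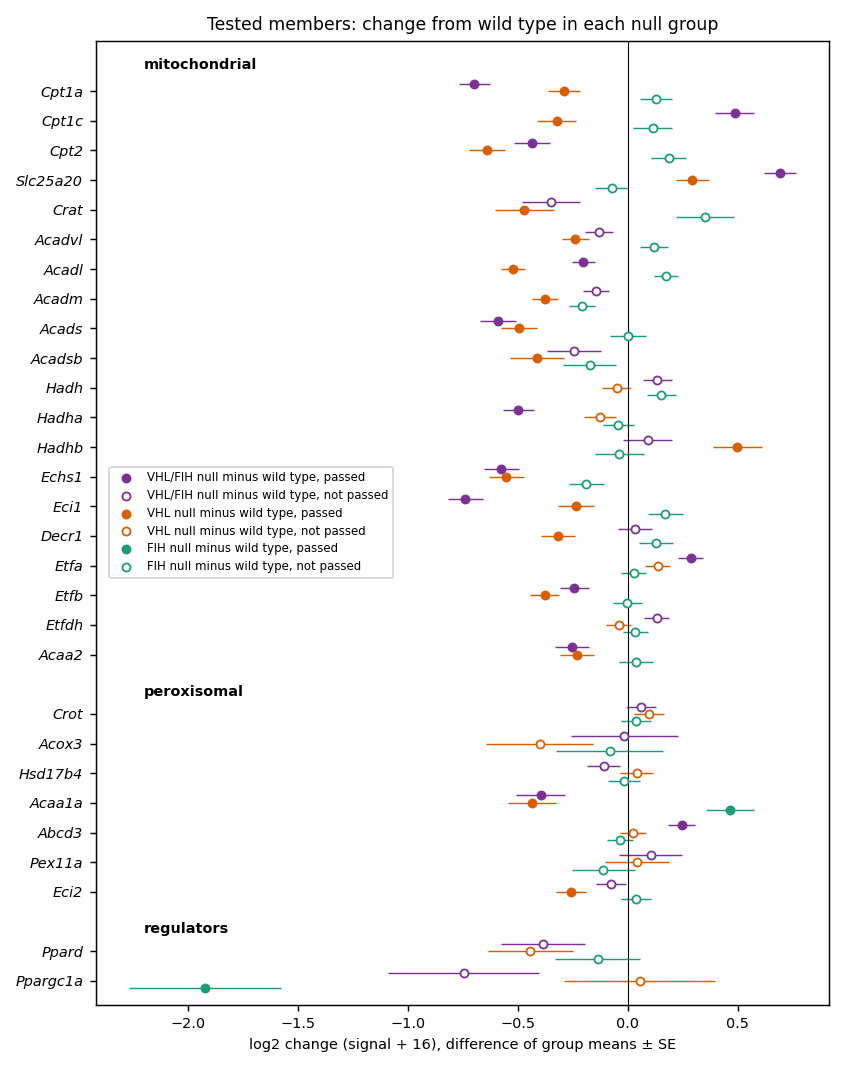
Log2 change (x axis, difference of group means of log2(signal + 16), bars are the SE) of the 29 tested genes in VHL/FIH null, VHL null and FIH null cells against wild type, 2 arrays a group, filled where the limma test was passed. In VHL null cells 16 points lie below 0 and filled, and the point of Ppargc1a in FIH null cells rests on signals below the cutoff, where only a fall of at least 1.66-fold can be stated.

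Genes of the carnitine shuttle changed in both directions in VHL/FIH null cells against wild type. Cpt1a, the carnitine palmitoyltransferase of the outer membrane that sets the rate of entry, had signals of 3807 and 3442 in VHL/FIH null cells, 4848 and 4776 in VHL null cells, 6421 and 6447 in FIH null cells, and 5977 and 5788 in wild type cells. Arrays of VHL/FIH null cells lay below those of VHL null cells, which in turn lay below those of FIH null and wild type cells, with no overlap. Cpt1a fell by 0.70 on the log2 scale in VHL/FIH null cells (SE 0.0713, limma adjusted p = 1.99e-05, 1.62-fold lower) and by 0.29 in VHL null cells (adjusted p = 0.00718), and it changed by 0.13 in FIH null cells without passing (adjusted p = 0.332). Between VHL/FIH null and VHL null cells it fell by 0.41 (adjusted p = 0.00108). In VHL null cells it no longer passed with equal array medians (adjusted p = 0.0524) or when its 3 probe sets were averaged (adjusted p = 0.531).

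Cpt1c encodes a relative found mainly in neurons, where it lies in the endoplasmic reticulum and has little transferase activity. It went the other way from Cpt1a in VHL/FIH null cells, reading 3839.6 and 3748 in VHL/FIH null, 2298 and 2022 in VHL null, 2964 and 2889 in FIH null and 2632 and 2773 in wild type cells. Both VHL/FIH null arrays were above every other array and both VHL null arrays below every other. Cpt1c rose by 0.49 in VHL/FIH null cells against wild type (SE 0.0887, limma adjusted p = 0.00116) and by 0.81 against VHL null cells (adjusted p = 4.4e-05), while it fell by 0.32 in VHL null cells against wild type (adjusted p = 0.0124). Scaling to the spiked hybridization controls turned the first of these to -0.034. The fall in VHL null cells ended without VHL null replicate 2 (adjusted p = 0.0972), with wild type replicate 2 left out (adjusted p = 0.0728) and with quantile normalization (adjusted p = 0.136). The third family member, Cpt1b, was not analysed here because its probe set is shared with neighbouring genes.

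The promoter windows of these genes are shown because Cpt1a and Cpt1c moved apart in VHL/FIH null cells. They are the 250 bases before the RefSeq start of each gene (build GRCm38.p6), with matches to AGGTCA, the arm of the repeat bound by PPAR with its partner RXR, in capitals on either strand. The Cpt1a window is chr19:3323051-3323300 on the plus strand, with its match 94 bases before the start, and the Cpt1c window is chr7:44974852-44975101 on the minus strand, with its match 146 bases before the start.
Cpt1a: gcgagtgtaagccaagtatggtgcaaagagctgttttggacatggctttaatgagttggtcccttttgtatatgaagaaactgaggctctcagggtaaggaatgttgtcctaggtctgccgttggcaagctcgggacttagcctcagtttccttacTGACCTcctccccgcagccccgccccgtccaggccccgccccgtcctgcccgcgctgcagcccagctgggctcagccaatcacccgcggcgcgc
Cpt1c: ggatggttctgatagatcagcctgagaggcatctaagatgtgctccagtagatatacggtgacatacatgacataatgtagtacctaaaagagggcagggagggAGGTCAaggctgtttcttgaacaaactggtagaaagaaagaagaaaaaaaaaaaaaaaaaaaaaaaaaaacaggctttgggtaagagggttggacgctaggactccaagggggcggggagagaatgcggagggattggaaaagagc
The core letters of a HIF site were searched as ACGTG and, separately, as GCGTG, and neither window held them. Such a match or its absence says nothing of binding.

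Slc25a20, the carrier that swaps acylcarnitine for carnitine across the inner membrane, was the member that rose in both groups without VHL. Its signals were 6898 and 7181 in VHL/FIH null, 5139 and 5543 in VHL null, 4328 and 3949 in FIH null and 4362 and 4339.5 in wild type cells. The VHL/FIH null arrays were highest, the VHL null arrays next, and the FIH null and wild type arrays lowest. It rose by 0.69 in VHL/FIH null cells (SE 0.074, limma adjusted p = 2.77e-05, 1.62-fold) and by 0.29 in VHL null cells (adjusted p = 0.00797) against wild type, and by 0.40 in VHL/FIH null against VHL null cells (adjusted p = 0.0016). A second probe set read 3174 and 3391 in VHL/FIH null, 2398 and 2539 in VHL null, 2884 and 2833 in FIH null and 3037 and 2847 in wild type cells. By that probe set Slc25a20 fell by 0.25 in VHL null cells against wild type (adjusted p = 0.0414 over all probe sets) and changed by 0.16 in VHL/FIH null cells without passing (adjusted p = 0.182), so the direction in VHL null cells differed between probe sets. Its rise in VHL/FIH null over VHL null cells was 0.41 by the second probe set (adjusted p = 0.0047), close to the 0.40 of the first. The rise in VHL null cells also ended without VHL null replicate 2 (adjusted p = 0.0656). Scaling to hybridization controls turned it to -0.083, ended the rise in VHL/FIH null cells against wild type (0.17, adjusted p = 0.0736) and left one of 0.25 over VHL null cells (adjusted p = 0.0273).

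Cpt2, the transferase on the inner face that returns the acyl group to coenzyme A, read 2557 and 2801 in VHL/FIH null, 2337 and 2302 in VHL null, 4157 and 4092 in FIH null and 3550.2 and 3697 in wild type cells. All 4 arrays without VHL lay below all 4 arrays with it. Cpt2 fell by 0.64 in VHL null cells (SE 0.081, limma adjusted p = 1.16e-04) and by 0.43 in VHL/FIH null cells (adjusted p = 0.00136) against wild type, and by 0.62 in VHL/FIH null against FIH null cells (adjusted p = 9.8e-05). None of these 3 calls held when its probe sets were averaged (adjusted p from 0.0773 to 0.277), the second of which had no array above 416. Crat, a transferase for short acyl groups in mitochondria and peroxisomes, read 2415 and 2287 in VHL/FIH null, 2535 and 1843 in VHL null, 3974 and 3702 in FIH null and 2830.0 and 3178 in wild type cells. The highest signals were those of FIH null cells, and the 2 VHL null arrays straddled the VHL/FIH null arrays. Crat fell by 0.70 in VHL/FIH null against FIH null cells (SE 0.132, limma adjusted p = 0.00126) and by 0.47 in VHL null against wild type cells (adjusted p = 0.0143). The second call ended without VHL null replicate 2 (adjusted p = 0.128) or wild type replicate 2 (adjusted p = 0.0952), and the first when its probe sets were averaged (adjusted p = 0.169). A second Crat probe set read 1448 and 1415 in VHL/FIH null and 857 and 819 in VHL null cells. By it Crat was 0.76 higher in VHL/FIH null than in VHL null cells (adjusted p = 0.00232 over all probe sets). It fell by 0.45 in VHL null cells against wild type (adjusted p = 0.0301). Its change of -0.22 in VHL/FIH null against FIH null cells did not pass (adjusted p = 0.243).

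**Figure D2:**
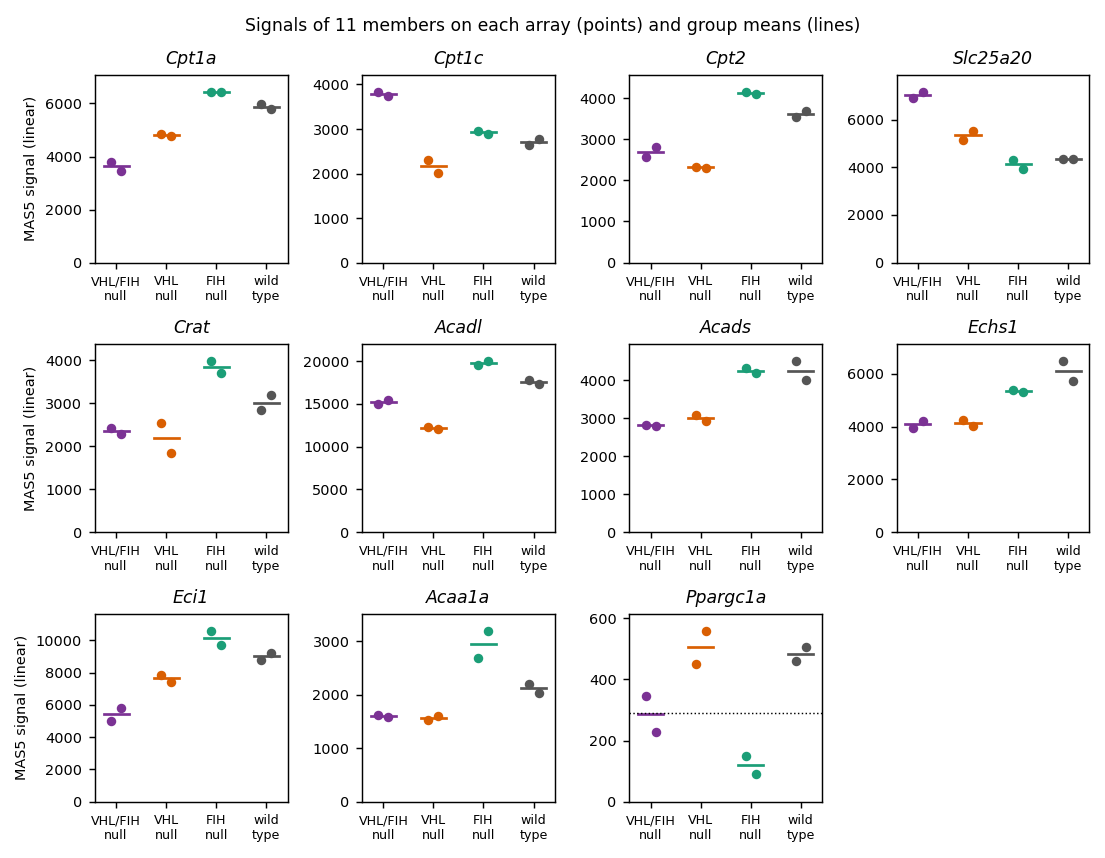
MAS5 signal (y axis, linear, from 0) of the 11 genes that passed with a log2 change of at least 0.5 and no overlap of arrays in at least 1 comparison, for VHL/FIH null, VHL null, FIH null and wild type cells, with a point for each array and a line for the group mean. The 4 arrays without VHL lie below the 4 with it for Cpt1a, Cpt2, Crat, Acadl, Acads, Echs1, Eci1 and Acaa1a by the probe sets used. The dotted line in the Ppargc1a panel is the cutoff of 291.1.

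All 5 acyl-CoA dehydrogenases on the member list, which take the first electrons from chains of different length, fell in VHL null cells. Acadl, the long-chain enzyme, read 15029 and 15451 in VHL/FIH null, 12294 and 12111 in VHL null, 19572 and 19989 in FIH null and 17748 and 17295 in wild type cells. The 4 groups did not overlap, with VHL null cells lowest, VHL/FIH null cells next and FIH null cells highest. Acadl fell by 0.52 in VHL null cells (SE 0.0532, limma adjusted p = 2.72e-05) and by 0.20 in VHL/FIH null cells (adjusted p = 0.0107) against wild type, and rose by 0.32 in VHL/FIH null over VHL null cells (adjusted p = 7.92e-04). With scaling to hybridization controls that rise was 0.17 and did not pass (adjusted p = 0.0614). The smaller fall was lost when wild type replicate 1 was left out (adjusted p = 0.0692) and with equal array medians (adjusted p = 0.128). Acads, the short-chain enzyme, read 2832 and 2807 in VHL/FIH null, 3101 and 2928 in VHL null, 4316 and 4187 in FIH null and 4507 and 3999.9 in wild type cells. All 4 arrays without VHL lay below all 4 with it. Acads fell by 0.59 in VHL/FIH null cells (SE 0.0826, limma adjusted p = 2.02e-04) and by 0.49 in VHL null cells (adjusted p = 7.24e-04) against wild type, and by 0.59 in VHL/FIH null against FIH null cells (adjusted p = 1.64e-04), calls that held under each alternative setting tried.

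Acadm, the medium-chain enzyme, read 10995 and 11834 in VHL/FIH null, 9708 and 9725 in VHL null, 11123 and 10739.6 in FIH null and 12656 and 12570.0 in wild type cells. VHL null arrays were lowest and wild type arrays highest, while VHL/FIH null and FIH null arrays overlapped. Acadm fell by 0.38 in VHL null cells against wild type (limma adjusted p = 4.79e-04) and was 0.23 higher in VHL/FIH null than in VHL null cells (adjusted p = 0.0101), a call that ended without VHL/FIH null replicate 2 (adjusted p = 0.0553) and with scaling to hybridization controls (0.086, adjusted p = 0.397). Acadvl, the very-long-chain enzyme, fell by 0.24 in VHL null cells (adjusted p = 0.0105), but not without VHL null replicate 2 (adjusted p = 0.0805) or wild type replicate 1 (adjusted p = 0.0878). With equal array medians this fall of Acadvl did not pass either (adjusted p = 0.123). A fall of 0.25 was found in VHL/FIH null against FIH null cells (adjusted p = 0.00708, and 0.0664 without FIH null replicate 1). Acadsb, which acts on short branched chains from amino acids, fell by 0.41 in VHL null cells (adjusted p = 0.0182), which did not pass when any 1 of these 4 arrays was left out (adjusted p from 0.0533 to 0.0804). This call also ended with quantile normalization (adjusted p = 0.113) and with equal array medians (adjusted p = 0.056). In VHL/FIH null against wild type cells the log2 changes of Acadm (-0.14), Acadvl (-0.13) and Acadsb (-0.25) did not pass.

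Echs1, the short-chain hydratase that performs the second step, read 3944 and 4219 in VHL/FIH null, 4259 and 4033 in VHL null, 5374 and 5311 in FIH null and 6477 and 5716 in wild type cells. The arrays without VHL again lay below all others, and VHL/FIH null and VHL null arrays overlapped. Echs1 fell by 0.58 in VHL/FIH null cells (SE 0.0794, limma adjusted p = 1.8e-04) and by 0.55 in VHL null cells (adjusted p = 2.67e-04) against wild type, and by 0.39 in VHL/FIH null against FIH null cells (adjusted p = 0.00215), and these 3 calls held under each alternative tried. Its promoter window is shown because it holds letters of both kinds searched. It lies at chr7:140116422-140116671 on the minus strand, with CACGC, the reverse complement of GCGTG, 120 bases and AGGTCA 83 bases before the start in capitals.
Echs1: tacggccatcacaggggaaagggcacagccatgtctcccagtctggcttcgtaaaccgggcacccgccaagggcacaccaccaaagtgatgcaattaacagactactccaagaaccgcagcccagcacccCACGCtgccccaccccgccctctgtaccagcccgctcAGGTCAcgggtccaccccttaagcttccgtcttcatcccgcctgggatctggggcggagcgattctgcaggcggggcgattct

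The trifunctional protein, which hydrates, oxidizes and cleaves long chains, is built of an alpha subunit from Hadha and a beta subunit from Hadhb. Against wild type the 2 transcripts were called in different groups, and both fell in VHL/FIH null against VHL null cells. Hadha read 8604 and 7933 in VHL/FIH null, 11051 and 10349.8 in VHL null, 11702 and 10974 in FIH null and 12211 and 11149 in wild type cells. Hadhb read 16441 and 20324 in VHL/FIH null, 24067 and 24430.3 in VHL null, 16183 and 17269 in FIH null and 15270.4 and 19276 in wild type cells. Hadha was lowest in VHL/FIH null cells, and Hadhb was highest in VHL null cells with the other groups overlapping. Hadha fell by 0.50 in VHL/FIH null cells against wild type (SE 0.0715, limma adjusted p = 2.4e-04), by 0.37 against VHL null cells (adjusted p = 0.00198) and by 0.46 against FIH null cells (adjusted p = 3.66e-04), and its change of -0.13 in VHL null cells did not pass (adjusted p = 0.178). Hadhb rose by 0.50 in VHL null cells against wild type (SE 0.111, limma adjusted p = 0.00402) and fell by 0.41 in VHL/FIH null against VHL null cells (adjusted p = 0.014). A second Hadhb probe set with closer replicates read 13737 and 14417 in VHL/FIH null, 17772 and 17799.5 in VHL null, 15553 and 15716 in FIH null and 14678 and 14805 in wild type cells. By it Hadhb rose by 0.27 in VHL null cells against wild type (adjusted p = 0.00392 over all probe sets) and fell by 0.34 in VHL/FIH null against VHL null cells (adjusted p = 0.00129). The fall in VHL/FIH null against VHL null cells by the first probe set ended without either VHL null array or VHL/FIH null replicate 1 (adjusted p from 0.0656 to 0.113), and the rise in VHL null cells ended with scaling to hybridization controls (adjusted p = 0.375).

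Hadha and Hadhb lie head to head, and the windows before their starts overlap, so only the window of Hadhb is shown, at chr5:30155003-30155252 on the plus strand. The bases next to the start of Hadha lie outside it. The window of Hadha is chr5:30154981-30155230 on the minus strand. Neither window held any of the HIF or PPAR letters named above on either strand, so the run has no capitals.
Hadhb: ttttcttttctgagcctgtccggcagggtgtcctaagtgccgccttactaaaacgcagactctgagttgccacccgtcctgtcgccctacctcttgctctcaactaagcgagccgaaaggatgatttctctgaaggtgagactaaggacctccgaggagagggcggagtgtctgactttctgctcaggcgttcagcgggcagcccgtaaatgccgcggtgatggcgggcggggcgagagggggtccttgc

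Helper enzymes prepare unsaturated chains for the cycle. Eci1, an isomerase that shifts double bonds, read 5016 and 5806 in VHL/FIH null, 7868 and 7448 in VHL null, 10604 and 9721 in FIH null and 8788 and 9238 in wild type cells. The groups did not overlap, with VHL/FIH null cells lowest and FIH null cells highest. It fell by 0.74 in VHL/FIH null cells against wild type (SE 0.0805, limma adjusted p = 3.18e-05, 1.67-fold lower), by 0.50 against VHL null cells (adjusted p = 6.22e-04) and by 0.91 against FIH null cells (adjusted p = 5.5e-06). Its fall of 0.23 in VHL null cells (adjusted p = 0.0348) did not pass when any 1 of these 4 arrays was left out (adjusted p from 0.0673 to 0.169). Decr1, a reductase of the same branch, fell by 0.32 in VHL null cells (limma adjusted p = 0.00676, and 0.0677 when wild type replicate 1 was left out). Decr1 was 0.35 higher in VHL/FIH null than in VHL null cells (adjusted p = 0.00449), or 0.21 with scaling to hybridization controls, which did not pass (adjusted p = 0.0746). Its change of 0.034 in VHL/FIH null against wild type cells did not pass.

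The 2 subunits of the electron transfer flavoprotein changed in opposite directions in VHL/FIH null cells against wild type and FIH null cells. Etfa, the alpha subunit, read 24767 and 23084 in VHL/FIH null, 22124 and 20997 in VHL null, 19980.3 and 19993 in FIH null and 19494 and 19694 in wild type cells. Etfb, the beta subunit, read 10559 and 11338 in VHL/FIH null, 10316 and 9616 in VHL null, 13026 and 12822 in FIH null and 13444 and 12459 in wild type cells. Arrays without VHL were thus the higher ones for Etfa and the lower ones for Etfb, without overlap against FIH null and wild type. Etfa rose by 0.29 in VHL/FIH null cells against wild type (SE 0.057, limma adjusted p = 0.00204) and by 0.26 against FIH null cells (adjusted p = 0.00343), changes that scaling to hybridization controls turned to -0.24 and -0.0058. Its change of 0.14 in VHL null cells against wild type did not pass (adjusted p = 0.0722). Etfb fell by 0.38 in VHL null cells (adjusted p = 9.32e-04) and by 0.24 in VHL/FIH null cells (adjusted p = 0.0124) against wild type, and the smaller fall did not pass with wild type replicate 1 (adjusted p = 0.103) or VHL/FIH null replicate 1 (adjusted p = 0.0682) left out. It fell by 0.24 in VHL/FIH null against FIH null cells too (adjusted p = 0.0117), which ended without FIH null replicate 1 (adjusted p = 0.0702) or VHL/FIH null replicate 1 (adjusted p = 0.0659). Etfdh, the oxidoreductase that passes these electrons to ubiquinone, and Hadh, the short-chain hydroxyacyl dehydrogenase, did not pass against wild type in any null group. Their differences between VHL/FIH null and VHL null cells (0.17 and 0.18) passed, and each ended without either VHL null or FIH null array or VHL/FIH null replicate 2 (adjusted p from 0.0568 to 0.121 for Etfdh and from 0.0651 to 0.205 for Hadh). With scaling to hybridization controls they were 0.027 for Etfdh and 0.040 for Hadh and did not pass (adjusted p = 0.8 and 0.722). A second Hadh probe set fell by 0.44 in VHL null cells (adjusted p = 0.00118 over all probe sets) and by 0.21 in VHL/FIH null cells (adjusted p = 0.0437) against wild type.

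Acaa2, the mitochondrial thiolase for the last step, fell by small amounts in the cells without VHL. It fell by 0.23 in VHL null cells (SE 0.0774, limma adjusted p = 0.0308) and by 0.25 in VHL/FIH null cells (adjusted p = 0.0219) against wild type, and by 0.29 in VHL/FIH null against FIH null cells (adjusted p = 0.00955). Its fall in VHL null cells did not pass with VHL null replicate 2 or either wild type array left out (adjusted p from 0.0545 to 0.193). In VHL/FIH null cells against wild type it did not pass with wild type replicate 1 left out (adjusted p = 0.123) or without VHL/FIH null replicate 1 (adjusted p = 0.137), and the call against FIH null cells without FIH null replicate 1 (adjusted p = 0.0758) or VHL/FIH null replicate 1 (adjusted p = 0.0679).

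Whether the effect of VHL deletion depended on FIH was asked by the interaction, the change from FIH null to VHL/FIH null minus that from wild type to VHL null. It passed for 6 of the 29 genes (20.7%, where 21.9% of all genes passed, 13.4% higher and 8.47% lower), a share near that of all genes, and all 6 are on the mitochondrial list. Slc25a20 (0.47, adjusted p = 0.00855), Cpt1c (0.70, adjusted p = 0.00277) and Acadm (0.44, adjusted p = 0.00385) were higher in VHL/FIH null cells than the sum of the separate limma changes gives, and Cpt1a (-0.54, adjusted p = 0.00345), Eci1 (-0.68, adjusted p = 0.00188) and Hadha (-0.33, adjusted p = 0.0387) were lower. For Cpt1c the VHL effect changed its sign, with a rise of 0.37 in VHL/FIH null against FIH null cells (adjusted p = 0.00532) and the fall of 0.32 in VHL null against wild type cells, though scaling to hybridization controls ended the rise (adjusted p = 0.378). The call of Hadha ended without either VHL null or FIH null array, VHL/FIH null replicate 2 or wild type replicate 2 (adjusted p from 0.0527 to 0.143), and that of Cpt1a on averaging its probe sets (adjusted p = 0.115).

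Set against the groups with 1 deletion, VHL/FIH null cells differed from VHL null cells in 12 of 29 genes, 8 higher and 4 lower (41.4%, where 37.7% of all genes changed, 22.3% higher and 15.4% lower). The 4 lower ones were Cpt1a, Hadha, Hadhb and Eci1. Against FIH null cells 17 of 29 changed, 5 higher and 12 lower (58.6%, where 45.5% of all genes changed, 20.6% higher and 25% lower). These comparisons share arrays with those above and do not add independent support to them.

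**Figure D3:**
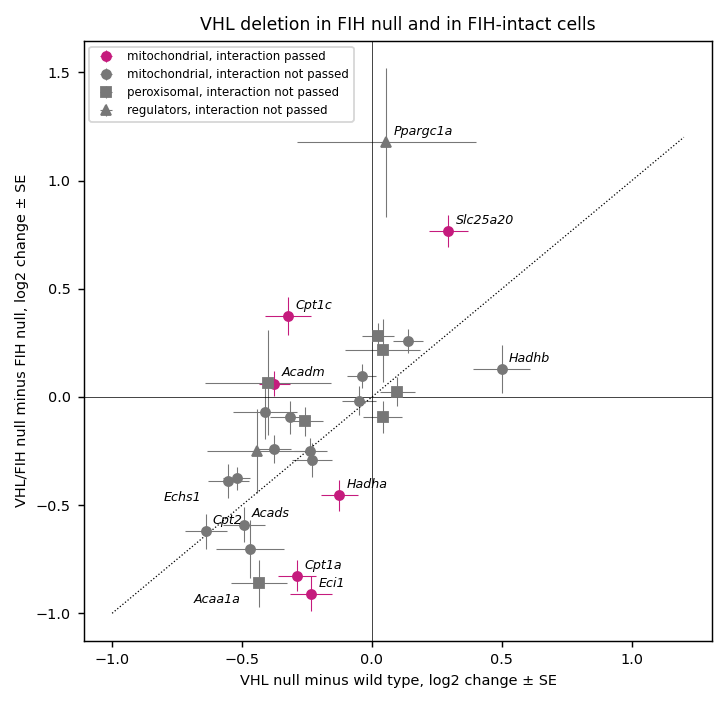
Log2 change on VHL deletion in FIH null cells (y axis, VHL/FIH null minus FIH null) and in cells with FIH (x axis, VHL null minus wild type), bars are the SE, for the 29 tested genes by set. The dotted line marks equal changes, and the 6 coloured genes passed the interaction, with Slc25a20, Cpt1c and Acadm above the line and Hadha, Cpt1a and Eci1 below it.

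Most of the 7 tested peroxisomal members did not pass against wild type by the probe sets used. Crot, which makes medium-chain acylcarnitines for export, read 4973 and 5325 in VHL/FIH null, 5223 and 5318 in VHL null, 5139 and 4977 in FIH null and 4866 and 4987 in wild type cells, with overlap between most groups, and it passed in none of the 5 comparisons of 2 groups. Hsd17b4, the bifunctional protein of the branched-chain route, Acox3, an oxidase of branched chains, and Pex11a, a factor of peroxisome division, also passed in none by the probe sets used, with log2 changes against wild type from -0.40 to 0.10 in all. A second Hsd17b4 probe set fell by 0.26 in VHL/FIH null against wild type (adjusted p = 0.0113 over all probe sets) and by 0.49 against FIH null cells (adjusted p = 2.11e-04), and its interaction was -0.41 (adjusted p = 0.0138). Abcd3, a transporter of the peroxisomal membrane, read 11769 and 11819.6 in VHL/FIH null, 9792 and 10436 in VHL null, 9987 and 9449 in FIH null and 9826 and 10066 in wild type cells. Its VHL/FIH null arrays stood above the other 6, which overlapped. Abcd3 rose by 0.25 in VHL/FIH null cells against wild type (SE 0.0605, limma adjusted p = 0.00728), by 0.22 against VHL null (adjusted p = 0.0139) and by 0.28 against FIH null cells (adjusted p = 0.00302). Scaling to hybridization controls turned the first to -0.28 and ended the calls against VHL null (0.077, adjusted p = 0.413) and FIH null cells (0.015, adjusted p = 0.862). The call against VHL null cells also ended without VHL null replicate 1 (adjusted p = 0.103). Eci2, an isomerase found in peroxisomes and mitochondria, fell by 0.26 in VHL null cells (adjusted p = 0.0102), which ended without VHL null replicate 1 (adjusted p = 0.066) or wild type replicate 2 (adjusted p = 0.0605).

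Acaa1a, a peroxisomal thiolase, read 1629 and 1585 in VHL/FIH null, 1520.2 and 1609 in VHL null, 2685 and 3202 in FIH null and 2206 and 2037 in wild type cells by the brighter of its probe sets. The FIH null arrays were highest and the arrays without VHL lowest. It fell by 0.40 in VHL/FIH null (SE 0.109, limma adjusted p = 0.0134) and by 0.43 in VHL null cells (adjusted p = 0.00796), and rose by 0.47 in FIH null cells (adjusted p = 0.0283), all against wild type, and fell by 0.86 in VHL/FIH null against FIH null cells (adjusted p = 8.19e-05). The other probe set gave the opposite order, with 841 and 923 in VHL/FIH null, 552 and 652 in VHL null, 491 and 307 in FIH null and 390.1 and 607 in wild type cells. By it the gene rose by 0.83 in VHL/FIH null cells against wild type (adjusted p = 0.0349 over all probe sets) and by 1.15 against FIH null cells (adjusted p = 0.00675). Both are of the kind that may read related sequences, and Acaa1b is a near-identical copy, so the direction for Acaa1a is uncertain. With the first probe set the call in FIH null cells also ended without either wild type array or FIH null replicate 2 (adjusted p from 0.0778 to 0.246). The call in VHL null cells was lost with wild type replicate 1 or VHL null replicate 1 left out (adjusted p from 0.0524 to 0.0618), and that in VHL/FIH null cells with wild type replicate 1 or VHL/FIH null replicate 2 left out (adjusted p from 0.0509 to 0.0908). Abcd2, a transporter that had no signal above 115.7, and Ehhadh, the other bifunctional enzyme, whose highest signal was 318.5, were too dim to be tested.

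Over the 12 members with more than 1 tested probe set and the 6 comparisons, calls in opposite directions occurred in 3 of 72 cases, those of Acaa1a and Slc25a20 above. Over all probe sets tested, 34.1% passed in VHL/FIH null, 35.3% in VHL null and 4.33% in FIH null against wild type cells, 29.8% in VHL/FIH null against VHL null and 38.3% against FIH null cells, and 15.7% in the interaction.

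**Figure D4:**
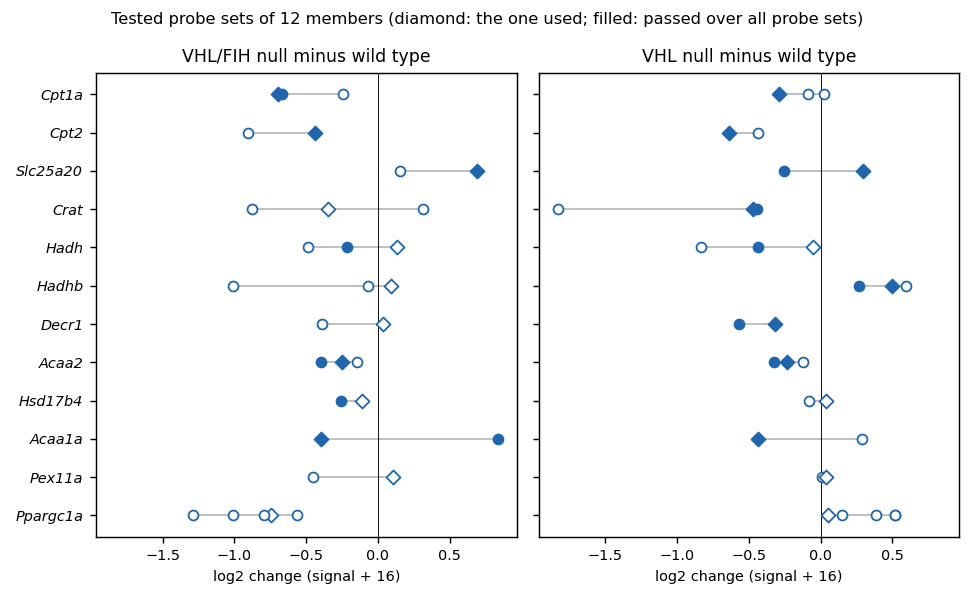
Log2 change (x axis) of every tested probe set of the 12 members with more than 1, in VHL/FIH null (left) and VHL null cells (right) against wild type, a diamond for the probe set used for the gene and filled where it passed over all probe sets. The probe sets of Acaa1a in the left panel and of Slc25a20 in the right panel lie filled on both sides of 0.

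Among the regulators Ppargc1a, which encodes PGC-1 alpha, was lower in FIH null cells. It was dim, with 346 and 229 in VHL/FIH null, 452 and 559.7 in VHL null, 149 and 89.5 in FIH null and 462 and 506 in wild type cells. Both FIH null arrays and VHL/FIH null replicate 2 were below the cutoff of 291.1, and VHL null and wild type arrays overlapped. It fell by at least 1.66-fold in FIH null cells against wild type, with the wild type mean set against the cutoff (limma adjusted p = 0.00664). With wild type replicate 2 left out it did not pass (adjusted p = 0.0594). Its difference between VHL/FIH null and FIH null cells passed (adjusted p = 0.0162), but both group means were below the cutoff, so no fold is given, and the call ended without FIH null replicate 2 (adjusted p = 0.0973) or VHL/FIH null replicate 1 (adjusted p = 0.11). Against wild type its differences in VHL/FIH null (adjusted p = 0.105) and VHL null cells (0.055 on the log2 scale, adjusted p = 0.91) did not pass, and neither did its interaction (adjusted p = 0.126).

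All 5 Ppargc1a probe sets were tested, and every FIH null array was below the cutoff in each. They thus entered the test only through arrays of the other groups, and their p-values add no independent support to the fall. In 2 of the 5 the wild type mean was below the cutoff too, so they give no fold between FIH null and wild type cells. The second brightest read 214 and 238 in VHL/FIH null, 502 and 679.9 in VHL null, 6.7 and 116 in FIH null and 318 and 511 in wild type cells. Both its VHL/FIH null and FIH null arrays were below the cutoff, and it was at least 1.42-fold lower in FIH null than in wild type cells (adjusted p = 0.0344 over all probe sets).

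**Figure D5:**
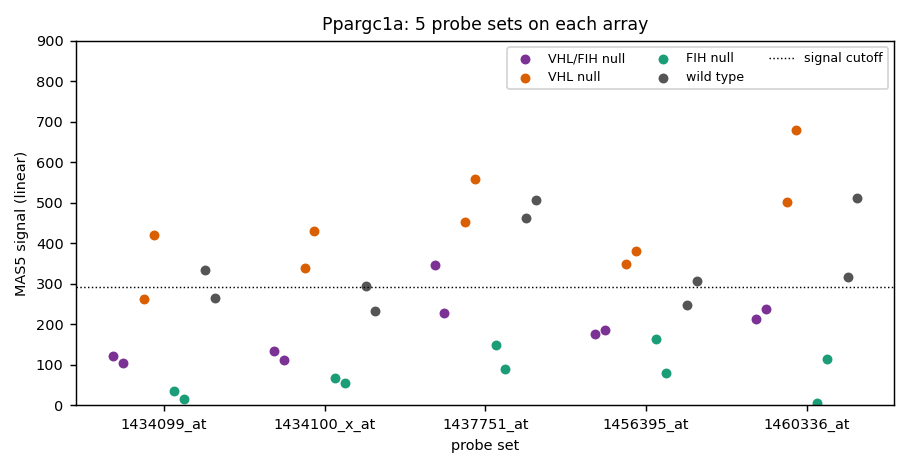
MAS5 signal (y axis, linear, from 0) of the 5 Ppargc1a probe sets (x axis) on each array of VHL/FIH null, VHL null, FIH null and wild type cells, with the cutoff of 291.1 dotted. Every FIH null array lies below the cutoff for each probe set, and no signal exceeds 679.9.

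The Ppargc1a window at chr5:51567726-51567975 on the minus strand is shown because it was 1 of 3 members' windows with ACGTG, which it holds as its reverse complement CACGT, in capitals, 51 bases before the start.
Ppargc1a: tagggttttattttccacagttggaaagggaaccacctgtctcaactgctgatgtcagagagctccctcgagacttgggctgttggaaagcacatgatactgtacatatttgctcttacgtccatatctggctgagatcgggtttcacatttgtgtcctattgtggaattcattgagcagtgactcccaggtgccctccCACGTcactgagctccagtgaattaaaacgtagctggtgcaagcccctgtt
Ppard, the receptor PPAR delta, read 2109 and 1627 in VHL/FIH null, 1981 and 1599 in VHL null, 2116 and 2297 in FIH null and 3023 and 1943 in wild type cells, with wild type arrays that spanned much of the range, and it passed in no comparison. Ppara, the receptor PPAR alpha that leads this program in liver, had no signal above 175.4 in 3 probe sets, and Ppargc1b, which encodes PGC-1 beta, none above 302.8. Neither was tested.

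RefSeq windows were found for 27 of the 34 genes, 28 windows in all. On either strand ACGTG occurred in 10.7% of them and in 16.6% of all 32851 mouse windows, GCGTG in 50% and in 28.2%, and AGGTCA in 17.9% and in 14%. A direct repeat of AGGTCA with 1 base between its copies occurred in 0 member windows and in 0.0335% of all. The members' windows were richer in G and C than others, with a median of 59.8% and 52.4%, and these letters count only what stands in the window. Windows with ACGTG were those of Acadvl, Ppard and Ppargc1a. The windows of Slc25a20, Eci1, Hadha and Hadhb held none of the letters searched.

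Other genes of fat use were followed in lists of their own. Of all tested genes 23.6% fell and 17.8% rose in VHL/FIH null, 28.4% fell and 15.5% rose in VHL null, and 4.59% fell and 1.96% rose in FIH null cells against wild type. The lists are small, and nothing particular to them is read from their counts. The alternative settings given below were tried for the members, Hif1an and Vhl but not for single genes of these lists. How the rises and falls of these genes depend on the scaling was thus not tested. Of 10 tested genes of fatty acid activation and transport, 4 fell and 0 rose in VHL/FIH null, 4 fell and 1 rose in VHL null, and 1 fell and 1 rose in FIH null cells against wild type. Acsl3, an acyl-CoA synthetase, read 2076 and 2276 in VHL/FIH null, 1872 and 1899.6 in VHL null, 5061 and 5271 in FIH null and 3821 and 4285 in wild type cells, so that the groups with and without VHL stood far apart. It fell by 0.89 in VHL/FIH null (limma adjusted p = 1.58e-05) and by 1.1 in VHL null cells (adjusted p = 5.03e-06) and rose by 0.35 in FIH null cells (adjusted p = 0.0388). Acsl5 and Dbi, an acyl-CoA carrier, fell in both groups without VHL, by 0.48 and 0.45 in VHL null cells, while Acsl4 rose by 0.29 there. Fabp3, a fatty acid carrier of heart and muscle, fell in all 3 null groups, by 0.50 in VHL/FIH null (adjusted p = 0.0484), 0.58 in VHL null (adjusted p = 0.0248) and 0.73 in FIH null cells (adjusted p = 0.0377).

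Among 15 other genes of mitochondrial acyl-CoA breakdown, 5 fell and 1 rose in VHL/FIH null, 5 fell and 0 rose in VHL null and 0 changed in FIH null cells. Pcca, a subunit of propionyl-CoA carboxylase, fell by 1.02 in VHL/FIH null (limma adjusted p = 4.94e-06) and by 0.65 in VHL null cells (adjusted p = 1.69e-04). Of the enzymes downstream of it, Mcee fell by 0.60 in VHL/FIH null cells, and Mmut fell by 0.26 in VHL/FIH null and 0.31 in VHL null cells. Ivd, an enzyme of leucine breakdown, fell by 0.48 in VHL/FIH null and 0.79 in VHL null cells. Acad11 rose by 0.39 in VHL/FIH null cells (adjusted p = 0.00903).

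Among 16 other peroxisomal enzymes 3 fell and 2 rose in VHL/FIH null, 7 fell and 2 rose in VHL null and 0 changed in FIH null cells. Scp2, a sterol carrier and thiolase, read 19149 and 18227 in VHL/FIH null, 14367 and 13446 in VHL null, 12866 and 13096 in FIH null and 12095 and 12178 in wild type cells. It rose by 0.62 in VHL/FIH null (limma adjusted p = 9.63e-06) and by 0.20 in VHL null cells (adjusted p = 0.0183). Phyh, which starts the breakdown of phytanic acid, rose by 0.56 in VHL/FIH null and fell by 0.39 in VHL null cells, while Hacl1, of the breakdown of branched chains, fell by 0.50 in VHL/FIH null and 0.51 in VHL null cells. Gnpat, the first enzyme of ether lipid synthesis, fell by 0.54 in VHL/FIH null and by 0.40 in VHL null cells. Decr2 fell by 0.56 and Agps by 0.27 in VHL null cells, where Slc25a17 rose by 0.26, and Nudt19 fell by 0.28 in VHL/FIH null cells.

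Of 12 tested peroxins, the proteins that build peroxisomes, 2 fell and 1 rose in VHL/FIH null, 4 fell and 0 rose in VHL null and 0 changed in FIH null cells. Pex19, the chaperone of membrane proteins, fell by 0.73 in VHL/FIH null (limma adjusted p = 1.75e-04) and by 0.53 in VHL null cells (adjusted p = 0.00149). Pex5, the import receptor, fell by 0.48 in VHL/FIH null and 0.45 in VHL null cells. Pex11g fell by 0.64 in VHL null cells, and Pex3 rose by 0.36 in VHL/FIH null cells. Of 13 PPAR partners and energy regulators 1 fell and 1 rose in VHL/FIH null, 1 fell and 2 rose in VHL null and 1 fell in FIH null cells. Rxra, the receptor that pairs with PPARs, read 1345 and 1450.5 in VHL/FIH null, 1074 and 1218 in VHL null, 2466 and 2254 in FIH null and 2076 and 2056 in wild type cells. It fell by 0.56 in VHL/FIH null (limma adjusted p = 0.00204) and by 0.84 in VHL null cells (adjusted p = 1.55e-04). Med1, the Mediator subunit that binds nuclear receptors, rose by 1.32 in VHL/FIH null (adjusted p = 2.79e-06) and by 0.69 in VHL null cells (adjusted p = 3.97e-04) and fell by 0.47 in FIH null cells (adjusted p = 0.023). Prkaa1, a catalytic subunit of the AMP-activated kinase, rose by 0.43 in VHL null cells (adjusted p = 0.00729).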

How the data were processed

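Total RNA of 8 MEF samples was read on 1 array each. The authors deposited the intensity of each probe set as a linear signal, made with MAS5 as named in the submitters' processing notes (its version is not given in the sources used here). The arrays had equal trimmed means (2500.01), so no further normalization was applied, and the number of arrays limits the precision. From these, log2(signal + 16) was computed. Probe sets above 291.1 on at least 2 arrays entered the tests, and the one with the highest mean log2 value stood for its gene. All 8 arrays entered 1 model of group means in limma 3.58.1 (R 4.3.3, lmFit and eBayes with a variance trend). Two-sided p-values of 6 contrasts received Benjamini-Hochberg adjustment over the 11564 genes of each contrast, or over 24523 probe sets where so stated. The fit was tested on simulated data. Probe sets were assigned through the platform annotation: 34945 had 1 symbol, 932 several and 9160 none or were not listed. Sequences come from RefSeq (GRCm38.p6).

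The members, the lists and the tests were chosen with earlier results of these data known, so counts over members are a description. Members are given array by array where they passed in at least 1 comparison with a log2 change of at least 0.5 and no overlap of arrays, and Acadm, Hadha, Hadhb, Etfa, Etfb, Crot, Abcd3 and Ppard were added after their values were seen. Genes of the other lists are named where they had the 3 smallest p-values of a direction against wild type. Alternatives were pseudocounts of 1 and 64, no filter or one at the 75th percentile (2454), quantile normalization, equal array medians, scaling to 18 probe sets of spiked hybridization controls, the mean of probe sets, leaving out probe sets whose names end in _x_at, _s_at or _a_at, no variance trend, the replicate number as a block and leaving out each array. Genes without a probe set of their own in the annotation used are not analysed here.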

Additional observations from a re-analysis of the deposited data

Results flagged for a closer look

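The effect of VHL deletion differed with and without FIH, by the interaction term of the limma fit, for 6 genes of fatty acid oxidation. The differences (VHL/FIH null minus FIH null, less VHL null minus wild type, log2 scale) were -0.54 for Cpt1a, 0.70 for Cpt1c, 0.47 for Slc25a20, 0.44 for Acadm, -0.33 for Hadha and -0.68 for Eci1. In all, 21.9% of tested genes had such a difference, so the 6 of 29 found here are no more than the common share.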

How the results depend on the processing

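Of 69 calls of members in the 6 comparisons, 43 were kept without each array in turn and 26 under each of the 19 alternatives that tested them. The count in FIH null against wild type cells was 2 and changed by the largest ratio: 1 gene with no filter, under the 75th-percentile filter, with the mean of probe sets, without the probe sets that may cross-hybridize and with no variance trend, 5 with equal array medians, 14 with scaling to hybridization controls, and from 0 to 3 without single arrays. The count in VHL null against wild type cells ran from 11 to 19 without single arrays, lowest without VHL null replicate 2. Differences between replicates correlated little between groups, with r between 0.00869 and 0.0393 in 6 group pairs. This does not tell whether samples with the same replicate number were handled together. With the replicate number as a block 15 members changed in VHL/FIH null against wild type cells (51.7%, where 43.4% of all genes did). There were 19 in VHL null (65.5%, where 46.2% did) and 2 in FIH null cells (6.9%, where 7.7% did). Of all genes in FIH null against wild type cells 6.55% changed in the main fit, 12.8% with equal array medians and 44.2% with scaling to hybridization controls.

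Spiked hybridization controls were higher than in wild type by 0.52 in VHL/FIH null, 0.38 in VHL null and 0.26 in FIH null arrays on the log2 scale. Scaling to them moved the median change of all genes to -0.57, -0.47 and -0.26. On this scaling 26, 25 and 14 members fell and 0 rose, with medians of -0.67, -0.63 and -0.23. These were 89.7%, 86.2% and 48.3% of members, where 74.4%, 68.7% and 43.6% of all genes fell. Values that turned and passed on either scaling were, in VHL/FIH null against wild type cells, Abcd3 (-0.28), Cpt1c (-0.034), Crot (-0.46), Decr1 (-0.49), Etfa (-0.24), Etfdh (-0.39), Hadh (-0.39), Hadhb (-0.43) and Pex11a (-0.41). In VHL null cells they were Abcd3 (-0.35), Crot (-0.28), Etfa (-0.24), Hsd17b4 (-0.34) and Slc25a20 (-0.083), and in FIH null cells Acads (-0.26), Crot (-0.22), Eci2 (-0.22), Etfa (-0.23) and Etfdh (-0.22). In VHL/FIH null against FIH null cells they were Acadm (-0.20), Crot (-0.24) and Etfa (-0.0058). Values that passed on neither scaling also turned and are not listed.

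With the mean of probe sets Acaa1a turned to 0.22 in VHL/FIH null against wild type and 0.14 against FIH null cells, and Hadhb to -0.33 and -0.42. Without the probe sets that may cross-hybridize Hadh turned to -0.21 in VHL/FIH null against wild type and Hadhb to -0.15 against FIH null cells. The cause was not tested. Signals near the cutoff, those of Ppargc1a among them, limit what can be said of its level.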

Other observations

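Of 4 tested genes known to respond to PPARs, Pdk4, a kinase that holds back pyruvate use and so favours fat oxidation, was lower in each null group. It read 639.9 and 844 in VHL/FIH null, 855 and 955 in VHL null, 542 and 467 in FIH null and 1833 and 1965 in wild type cells. Wild type arrays were above all others and FIH null arrays below all others. Its log2 changes against wild type were -1.35 in VHL/FIH null (limma adjusted p = 1.02e-04), -1.06 in VHL null (adjusted p = 6.02e-04) and -1.88 in FIH null cells (adjusted p = 4.97e-05).

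Plin2, a coat protein of lipid droplets, rose by 0.47 in VHL/FIH null and by 0.57 in VHL null cells against wild type (limma adjusted p = 8.19e-05 and 2.53e-05). Angptl4, a secreted inhibitor of lipoprotein lipase, read 1017 and 805 in VHL/FIH null, 1791 and 1627 in VHL null, 866 and 1146 in FIH null and 888 and 841 in wild type cells. VHL null arrays stood above the other 6. It rose by 0.97 in VHL null cells against wild type (adjusted p = 9.36e-04) and its interaction was -1.11 (adjusted p = 0.0075). Pdk4, Plin2 and Angptl4 were not tried under the alternative settings.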
